A study of Mus musculus with 2 samples.

Results

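Granulocytes were 81 of the 19864 cells that were sorted as CD45+ from mouse brain and assigned to a mouse. They were chosen by 2 measured values, as the cells with at least 500 gene UMIs (unique molecular identifiers, which count captured RNA molecules) of which S100a8 and S100a9 together made up at least 1%. S100a8 and S100a9 encode the subunits of calprotectin, the most abundant cytosolic protein of neutrophils. The cells came from 8 C57BL/6J mice of 12 weeks for which no treatment is given, 4 control mice and 4 Arpc4ΔCx3cr1 mice. All 8 carried Arpc4 fl/fl, an allele that Cre recombinase deletes, and the Arpc4ΔCx3cr1 mice carried 1 copy of Tg(Cx3cr1-Cre) in addition, while the littermate controls were Cre-negative. Arpc4 encodes a subunit of the Arp2/3 complex, which nucleates branched actin filaments. Cx3cr1 drives Cre in microglia, other brain myeloid cells and monocyte lineage cells, and is known to be low in mature neutrophils. Viable cells were stained with a DNA oligonucleotide (CMO) that differed between mice, called the tag here, and were then combined for a single 3′ RNA library. The methods give 4 males in the control group, and 3 males and 1 unintended female among the Arpc4ΔCx3cr1 mice. The female is not named in the labels, and the methods leave it out of the downstream analyses, whereas all 8 mice were used here. Arpc4ΔCx3cr1 mouse 1 was the only mouse with Xist in most of its cells, and it supplied 33 of the 46 granulocytes of its genotype, so sex and genotype cannot be told apart in values that rest on this mouse. The methods name perfusion for the isolation of adult microglia for RNA sequencing and do not repeat it for the single-cell sort. Granulocytes of vessels, meninges and brain tissue cannot be told apart in these data.

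Neutrophils, the main granulocytes, mature in bone marrow in steps that leave a trace in their transcripts. Promyelocytes fill primary granules with Mpo, Elane and Prtn3. Myelocytes and metamyelocytes still divide or have just ceased to, and load secondary granules with Ngp, Camp and Ltf under the transcription factor C/EBPε. Late cells express Retnlg, gelatinases and the chemokine receptor Cxcr2, and leave the marrow for the blood. In the undisturbed brain neutrophils are rare, and most of them lie in vessels, meninges and the adjoining skull marrow.

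The 3 secondary granule genes that were used to place the cells in this sequence lie within 1.195 Mb of chromosome 9, and Retnlg lies on chromosome 16. In GENCODE vM21 (GRCm38, the mm10 assembly of the files), Ngp (neutrophilic granule protein, ENSMUSG00000032484) is at chr9:110419747-110423012 on the plus strand. Camp, which encodes the antimicrobial peptide cathelicidin, is at chr9:109847379-109849617 on the minus strand, and Ltf, which encodes lactoferrin, is at chr9:111019271-111042767 on the plus strand. Retnlg, which encodes resistin-like gamma, is at chr16:48872621-48874496 on the plus strand. The sequences before their starts (RefSeq, GRCm38.p6, 5′ to 3′ on the strand of the gene) are shown because the first 3 genes moved together across the granulocytes and opposite to Retnlg, and because C/EBP factors bind sites of the form TTGCNNAA. Bases that either annotation places in the transcript were left out, which leaves chr9:110419558-110419746 for Ngp, chr9:109849618-109849706 for Camp, chr9:111019042-111019270 for Ltf and chr16:48872358-48872607 for Retnlg. Capitals mark matches to TTGCNNAA on either strand.
Ngp: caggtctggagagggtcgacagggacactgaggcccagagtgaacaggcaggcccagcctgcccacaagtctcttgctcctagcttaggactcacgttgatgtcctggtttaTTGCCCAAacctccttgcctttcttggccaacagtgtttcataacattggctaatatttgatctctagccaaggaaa
Camp: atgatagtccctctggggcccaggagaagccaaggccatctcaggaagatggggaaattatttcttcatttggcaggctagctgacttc
Ltf: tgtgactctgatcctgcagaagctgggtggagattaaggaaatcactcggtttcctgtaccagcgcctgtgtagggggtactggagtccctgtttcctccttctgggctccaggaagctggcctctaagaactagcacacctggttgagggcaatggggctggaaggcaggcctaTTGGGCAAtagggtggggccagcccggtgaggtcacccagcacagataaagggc
Retnlg: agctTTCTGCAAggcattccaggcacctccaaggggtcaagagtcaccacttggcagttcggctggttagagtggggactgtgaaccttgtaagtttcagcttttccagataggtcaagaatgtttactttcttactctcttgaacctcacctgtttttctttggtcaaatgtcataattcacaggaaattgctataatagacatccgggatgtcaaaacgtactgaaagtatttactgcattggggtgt
Over the 250 bases before the RefSeq start, Ngp held 2 matches, Ltf and Retnlg held 1 each and Camp held 0, and 9.56% of the 32851 windows of this length in the table held at least 1. The second match of Ngp lies 11 to 4 bases before the RefSeq start, in the part not printed, the match of Ltf 75 to 68 bases and that of Retnlg 246 to 239 bases before it. A match describes letters and is not a measured site.

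S100a8 and S100a9 chose the cells, so their levels are a description. Together they made up a median of 37.6% and at most 48.7% of the UMIs of a granulocyte. The threshold lay in a gap: 80 of the 81 cells held 8% or more, the remaining 1 held 1.19%, and the nearest cells below the threshold held 0.876%, 0.603% and 0.410%. Of the 19783 other cells, 14452 had no UMI of either gene. The unfiltered pool showed free RNA of these genes, at 1266 counts per 1e+06 gene UMIs (CPM) for S100a8 and 1797 CPM for S100a9 in barcodes of at most 100 UMIs, against 138745 and 189117 CPM in the granulocytes and 29.9 and 48.0 CPM in the other cells. The label of granulocytes was checked against markers that the rule did not use. Ngp reached 27455 CPM in the granulocytes and 5.0 CPM in the other cells, Camp 26540 against 5.55 CPM, Ltf 4561 against 1.24 CPM and Retnlg 9806 against 2.68 CPM.

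The other genes with the highest ratio to the remaining cells were also genes of neutrophils. Lcn2, a siderophore-binding protein of secondary granules, stood at 15734 CPM in the granulocytes and 4.31 CPM in the other cells. Wfdc21 stood at 5182 against 1.80 CPM. Mmp8 and Mmp9, the neutrophil collagenase and gelatinase, stood at 805 and 597 CPM, against 0.351 and 0.538 CPM. Next came Chil3 (5116 CPM), Anxa1 (3277 CPM), Ifitm6 (3516 CPM), Lrg1 (798 CPM) and Serpinb1a (825 CPM). These ratios come from the same cells as the rule and were not tested. The 204 monocyte-like cells (other cells with UMIs of at least 3 of Ly6c2, Ccr2, Plac8, Ms4a4c and Napsa) held 0.563 CPM of Cxcr2, which stood at 249 CPM in the granulocytes. Their S100a8 (157 CPM) and S100a9 (43.9 CPM) are bounded by the rule, which they did not meet.

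Markers of most other cell types were low. The 10 microglia markers took a median of 0.0881% of the UMIs of a granulocyte, between 0.0132% and 2.47%, against a median of 3.31% in the other cells, and reached 1% in 8 granulocytes. Cd3e, Cd3g, Trac and Trbc2 of T cells, Cd79a and Ms4a1 of B cells, Klrb1c, Gzma and Prf1 of natural killer cells and Flt3, Cd209a and Zbtb46 of dendritic cells had 0 UMIs in all 81 cells. The monocyte list was the exception, at 0.138% of granulocyte UMIs against 0.0191% in the other cells, with a UMI in 73 granulocytes. Its level came from Ly6c2 (713 against 9.75 CPM), Plac8 (512 against 54.4 CPM) and Napsa (142 against 23.0 CPM), while Ccr2, Ms4a4c and Ace had 1 UMI each and Fn1 had 12. A single cell of Arpc4ΔCx3cr1 mouse 1, described below as the primary granule cell, held 36.9% of the Plac8 UMIs and 14.5% of the Napsa UMIs. Epx, Prg2 and Il5ra of eosinophils and Prss34, Cpa3 and Fcer1a of basophils and mast cells also had 0 UMIs. Other genes of these lists were detected in a few cells. A UMI of the T cell list was found in 4 granulocytes, of the natural killer cell list in 2 and of the dendritic cell list in 2. The eosinophil list had a UMI in 7 granulocytes, with Siglecf in 6, and the basophil and mast cell list in 2. Of the remaining lists, 13 granulocytes held a UMI of the CNS-associated macrophage list, 25 of the B cell list, 2 of the erythroid list and 23 of the brain tissue list. The granulocytes held 972614 gene UMIs in total and a median of 10657 per cell, against 3901 in the other cells, and mitochondrial genes took a median of 0.364% and at most 1.18%.

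How evenly the granulocytes were spread over the mice was examined first. The share of granulocytes was 0.557%, 0.247%, 0.702% and 0.0755% in control mice 1 to 4 (7 of 1257, 7 of 2831, 19 of 2705 and 2 of 2650 cells). It was 1.25%, 0.118%, 0.222% and 0.157% in Arpc4ΔCx3cr1 mice 1 to 4 (33 of 2632, 3 of 2543, 6 of 2704 and 4 of 2542 cells). The groups overlapped except for Arpc4ΔCx3cr1 mouse 1 above and control mouse 4 below all others, and Arpc4ΔCx3cr1 mouse 1 held 33 of the 46 granulocytes of its genotype. The mean was 0.396% ± 0.286 (SD, n = 4) in control and 0.438% ± 0.546 (SD, n = 4) in Arpc4ΔCx3cr1 mice (two-sided exact permutation test, p = 0.857, Benjamini-Hochberg adjusted p = 1 over 6 tests, smallest possible p = 0.0286). Without Arpc4ΔCx3cr1 mouse 1 the difference turned to -0.230 percentage points (exact permutation test, p = 0.314). Pooled over mice, 0.371% of control cells were granulocytes (exact 95% binomial interval 0.258 to 0.515%, counting error only) and 0.441% of Arpc4ΔCx3cr1 cells (0.323 to 0.588%), or 0.167% (0.0889 to 0.285%) without mouse 1. A share of sorted cells cannot tell more granulocytes from fewer other cells.

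**Figure D1:**
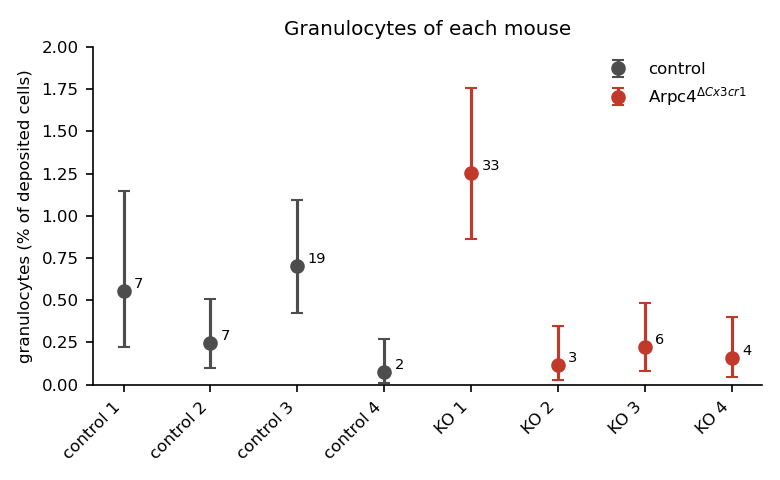
Share of granulocytes among the deposited cells of each mouse in percent, with exact 95% binomial intervals and the number of granulocytes beside each point. Arpc4ΔCx3cr1 mouse 1 (1.25%) stood above the other 3 mice of its genotype (0.118 to 0.222%), and the control mice ranged from 0.0755 to 0.702%.

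The assignment of granulocytes to mice was less certain than that of other cells. The tag of the own mouse was the most abundant tag in 69 of the 81 granulocytes, against 99.4% of the other cells. In the remaining 12, which came from 7 mice, the tag of Arpc4ΔCx3cr1 mouse 1 led, and the own tag took a median of 28.6% of the tag UMIs. Arpc4ΔCx3cr1 mouse 1 also differed in sex-linked transcripts: 20 of its 33 granulocytes and 90.8% of its other cells had a UMI of Xist, against 1.03 to 2.24% of the other cells in the other 7 mice. Among the 12 granulocytes led by the tag of mouse 1, 1 had a UMI of Xist and 5 had a UMI of a gene of the Y chromosome (Ddx3y, Uty, Eif2s3y or Kdm5d). The share of granulocytes was recomputed without these 12 cells, and the difference between genotypes was then 0.0876 percentage points (exact permutation test, p = 0.8).

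The maturation genes placed the granulocytes along a range. In 55 of the 81 cells (67.9%) Ngp, Camp and Ltf together took at least 1% of the gene UMIs, called the early range here, and in 34 cells Retnlg took at least 1%. Both applied to 13 cells, the early range alone to 42, Retnlg alone to 21 and neither to 5. These are ranges of a level and not cell types: 4 cells lay between 0.5% and 2% of Ngp, Camp and Ltf, and 15 cells between 0.5% and 2% of Retnlg. Across the 81 cells, which share 1 library and differ in depth, the levels of Ngp and Camp ranked alike (Spearman rho = 0.89), as did Ngp and Ltf (rho = 0.85) and Camp and Ltf (rho = 0.83). The sum of the 3 ranked opposite to Retnlg (rho = -0.60).

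Within the early range Ngp took 0.653 to 7.31% of the UMIs of a cell (median 3.89%), Camp 0.106 to 8.19% (median 3.89%) and Ltf 0.00819 to 1.21% (median 0.611%). Among the other 26 cells Ngp stood at a median of 0.0318% and at most 0.651%, while Camp had no UMI in 20 cells and reached at most 0.0176%. Retnlg took a median of 0.109% in the early range and of 2.29% outside it, with a maximum of 7.01%. In the 13 cells that met both limits, the 3 secondary granule genes had unequal levels: Ngp stood at 17945 CPM, Ltf at 4045 CPM and Camp at 6902 CPM, against 40194, 6437 and 41954 CPM in the 42 cells of the early range alone. Of the 13 cells 8 came from Arpc4ΔCx3cr1 mouse 1, as did 14 of the 42. In a split added after seeing the data, the ratio of the early range alone to both ranges was 4.12 for Camp, 1.86 for Ngp and 1.43 for Ltf within that mouse. In the cells of the other mice (28 and 5) it was 6.99 for Camp, 3.26 for Ngp and 1.84 for Ltf, so Camp had the largest ratio in both.

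**Figure D2:**
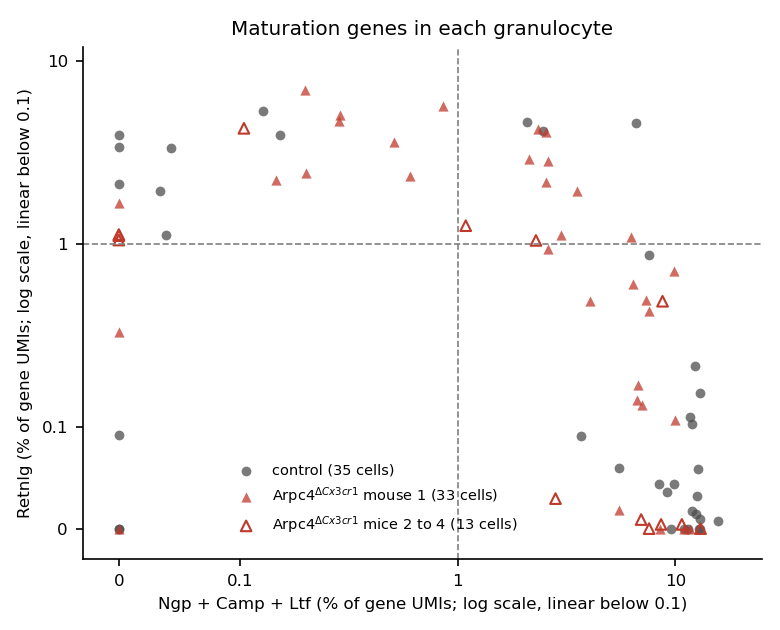
Summed share of Ngp, Camp and Ltf (horizontal) and share of Retnlg (vertical) in the gene UMIs of each of the 81 granulocytes, in percent on axes that are logarithmic above 0.1, with dashed lines at 1%. Control cells (35), cells of Arpc4ΔCx3cr1 mouse 1 (33) and of mice 2 to 4 (13) overlap, with 13 cells above both lines. On the horizontal axis control cells reached 15.7%, cells of mouse 1 at most 11.7% and cells of mice 2 to 4 at most 13.1%.

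Genes that were not used to set the ranges are described next on each side of the early range, over pooled cells and with no test, since the cells of a mouse are not replicates. For this comparison 1 cell of Arpc4ΔCx3cr1 mouse 1 was set apart, a choice made after seeing the data, which left 25 cells outside the early range. That cell had 60029 UMIs, 25.5% of all UMIs outside the early range, and only 1.19% of S100a8 and S100a9. It held 591 UMIs of Mpo, 1061 of Elane, 753 of Prtn3 and 377 of Ctsg, no UMI of Ngp, Camp, Ltf or Retnlg, and 116 UMIs of the 6 proliferation genes. It is called the primary granule cell below. It carried 85.3% of the UMIs of the 5 primary granule genes in all granulocytes. Of the other 80 cells, 4 held at least 10 UMIs of these genes, and all 4 were in the early range.

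Secondary granule genes stood higher in the early range for 6 of 6 genes, 3 of which defined it. Chil3 was at 6414 CPM in the early range and 709 CPM outside it, Lcn2 at 18953 and 7211 CPM, and Cd177, a neutrophil surface protein, at 527 and 343 CPM. Chil3 and Lcn2 were higher in the early range in 7 of the 7 mice that had cells of both kinds, and Cd177 in 6 of 7. Cebpe, the transcription factor of the secondary granule step, was at 373 CPM in the early range and had 1 UMI in the 25 other cells, and was higher in the early range in 7 of 7 mice. Gfi1, a repressor of the earlier step, was too low to compare, with 18 UMIs in all. Syne1, which encodes a nuclear envelope protein, was at 519 CPM in the early range and 103 CPM outside it, in that direction in 7 of 7 mice.

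Proliferation genes were detected mainly in the early range. Of the 81 cells, 11 held at least 10 UMIs of Mki67, Top2a, Birc5, Stmn1, Cdk1 and Ccnb2 together, with 11 to 116 UMIs each. They came from 6 mice, 5 cells from control and 6 from Arpc4ΔCx3cr1 mice. Apart from the primary granule cell, all 10 were in the early range, with at least 3.69% of Ngp, Camp and Ltf, and none was among the 25 other cells. These 11 cells were deep, with a median of 24010 UMIs, so their UMI sums cannot be compared with those of shallow cells one by one. Mki67, a marker of dividing cells, had 50 UMIs over the 55 cells of the early range (67.8 CPM) and 0 UMIs over the 25 others. In those 25 cells the floor of 3 UMIs that was used for ratios equals 17.1 CPM.

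Genes of late neutrophils stood higher outside the early range. All 6 tertiary granule and late genes did, among them Retnlg, Mmp8 (645 CPM in the early range, 1754 CPM outside), Mmp9 (548 and 1011 CPM) and Slpi, a protease inhibitor (662 and 2017 CPM). Itgam (388 and 429 CPM) and Padi4 (178 and 211 CPM) differed little. All 10 microglia genes and all 7 interferon-induced genes were higher outside it too, and the share over all genes was not computed. S100a8 and S100a9 took 36.3% of UMIs in the early range and 28.7% outside, and secondary granule genes 10.3% and 1.04%. The part of these shares in the counts of genes was not tested. Of the 8 mature surface receptors described here, 7 were higher outside it over pooled cells, and Ccrl2 had 3 UMIs in all and shows no direction. Cxcr2, the receptor for the chemokines that draw neutrophils from marrow, was at 180 CPM in the early range and 623 CPM outside, and was higher outside it in 7 of 7 mice. Clec4d, a C-type lectin, was at 25.8 and 354 CPM, with the same direction in 7 of 7 mice. Csf3r, the receptor of granulocyte colony-stimulating factor, was at 140 and 537 CPM, in that direction in 6 of 7 mice. Fpr2 (160 and 206 CPM) and Trem1 (20.3 and 103 CPM) were higher outside the early range in 4 and 3 of the 7 mice. Il1r2 was at 146 and 349 CPM over pooled cells, but was higher in the early range in 4 mice and outside it in 2. Csf3r was also present in the cells that were not granulocytes (363 CPM), and the microglia list took 0.658% of granulocyte UMIs outside the early range and 0.306% within it. The part of microglial RNA in the difference of Csf3r was not tested. For Cxcr2 and Clec4d the other cells held 0.608 and 1.32 CPM.

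**Figure D3:**
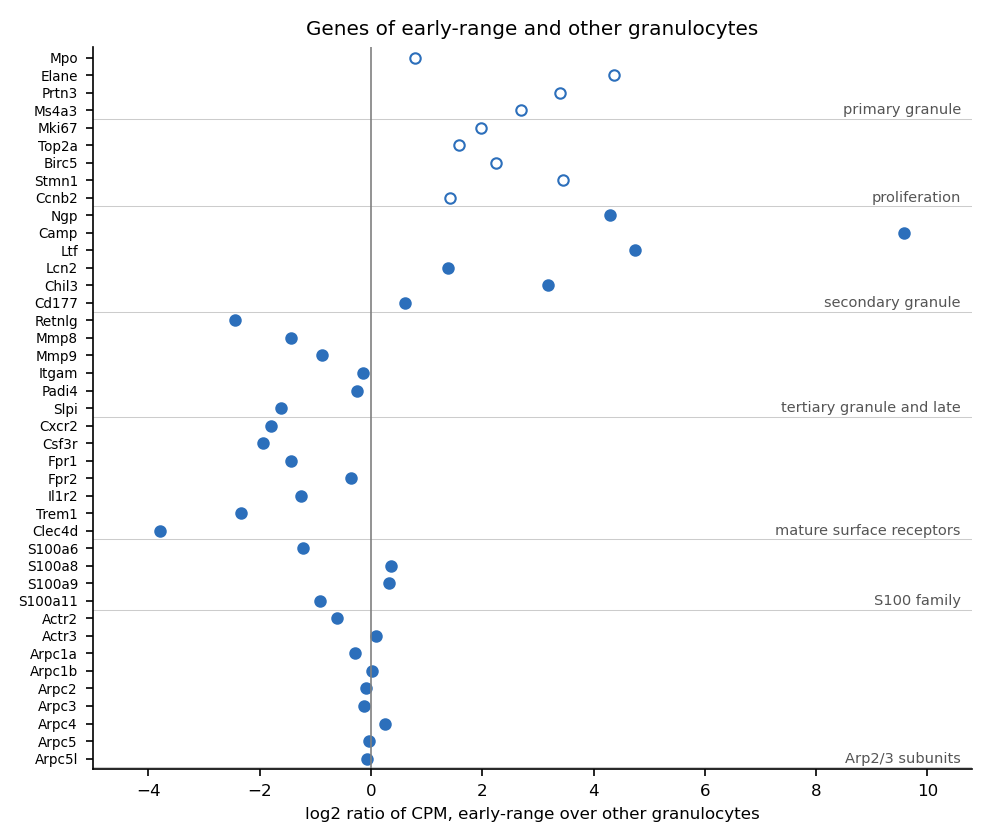
Log2 ratio of CPM in the 55 early-range granulocytes over the 25 others, for genes of 7 lists with at least 20 UMIs in these cells. Open points have at most 3 UMIs in 1 of the groups, which was then set to 3 UMIs. Secondary granule genes lie right of 0, tertiary granule genes and receptors left of it, and the Arp2/3 subunits on both sides, between -0.61 (Actr2) and 0.26 (Arpc4).

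Among the S100 genes, S100a6 (5199 CPM in the early range, 12068 CPM outside) and S100a11 (2789 and 5280 CPM) were higher outside the early range in 7 of 7 mice, whereas S100a4 and S100a10 had 11 and 18 UMIs in all granulocytes, S100a10 in the primary granule cell alone. Of the cytokines and chemokines, Il1b had 27 UMIs in 10 granulocytes, Tnf 19, Cxcl2 1 and Ptgs2 0. Pooled over mice, Il1b stood at 28.4 CPM in the granulocytes of control and 27.5 CPM in those of Arpc4ΔCx3cr1 mice. The other cells stood at 7.47 and 98.3 CPM. In some single mice the Il1b UMIs of the granulocytes were too few to show which of the 2 was higher. The granulocytes of control mice 1 and 4 had 0 UMIs of Il1b among 87027 and 13880 gene UMIs, against 8.91 and 8.17 CPM in their other cells. Those of Arpc4ΔCx3cr1 mouse 2 had 5 UMIs (97.4 CPM), against 54.7 CPM. Ccl6 was at 47.5 CPM in the early range and 937 CPM outside, higher outside it in 7 of 7 mice. Of the interferon-induced genes, Isg15 stood at 34.7 CPM in the granulocytes of control and 33.6 CPM in those of Arpc4ΔCx3cr1 mice, against 28.2 and 128 CPM in the other cells. Ifit1, Ifit3 and Rsad2 had 11, 9 and 8 UMIs in all granulocytes, while Ifitm1 and Ifitm3, which encode membrane proteins, stood at 2434 and 1575 CPM against 22.9 and 362 CPM. The 7 interferon-induced genes together took 0.409% of granulocyte UMIs and 0.414% of those of the monocyte-like cells.

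Whether maturation differed between genotypes was compared over the mice with at least 5 granulocytes, which were control mice 1, 2 and 3 and Arpc4ΔCx3cr1 mice 1 and 3. The early range held 71.4%, 57.1% and 68.4% of the granulocytes of these control mice (5 of 7, 4 of 7 and 13 of 19) and 66.7% in both Arpc4ΔCx3cr1 mice (22 of 33 and 4 of 6). The mean difference was 1.00 percentage point (exact permutation test, p = 1, where 0.1 is the smallest possible). Pooled over a genotype, 24 of 35 control granulocytes were in the early range (68.6%, exact 95% interval 50.7 to 83.1%) and 31 of 46 Arpc4ΔCx3cr1 granulocytes (67.4%, 52.0 to 80.5%), or 9 of 13 (69.2%, 38.6 to 90.9%) without mouse 1. At this number of cells no difference in the share of the early range was detectable.

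Ngp took 3.19, 2.80, 4.0 and 3.43% of the granulocyte UMIs in control mice 1 to 4 and 2.45, 1.25, 2.08 and 2.90% in Arpc4ΔCx3cr1 mice 1 to 4. Over the 5 mice tested the mean was 3.33% ± 0.609 (SD, n = 3) in control and 2.26% ± 0.262 (SD, n = 2) in Arpc4ΔCx3cr1 mice (exact permutation test, p = 0.2, adjusted p = 0.4 over 6 tests). Ltf took 0.577, 0.552, 0.640 and 0.476% in controls and 0.397, 0.228, 0.334 and 0.508% in the Arpc4ΔCx3cr1 mice. Its mean was 0.590% ± 0.0458 (SD, n = 3) against 0.366% ± 0.0439 (SD, n = 2), without overlap of the 5 mice (exact permutation test, p = 0.1, the smallest possible, adjusted p = 0.4). With all 8 mice, an alternative added after seeing the data, the groups overlapped in both genes through Arpc4ΔCx3cr1 mouse 4, and the difference was -0.194 percentage points for Ltf and -1.19 for Ngp (exact permutation test, p = 0.0571 for both).

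Camp took 3.66, 2.43, 5.22 and 2.60% in controls and 1.45, 3.02, 1.95 and 4.66% in the Arpc4ΔCx3cr1 mice. The mean of the mice tested was 3.77% ± 1.40 (SD, n = 3) against 1.70% ± 0.351 (SD, n = 2; exact permutation test, p = 0.2, adjusted p = 0.4). Retnlg took 0.369, 1.71, 0.527 and 1.68% in controls and 1.26, 0.561, 0.577 and 0.907% in the Arpc4ΔCx3cr1 mice, with means of 0.868% ± 0.732 (SD, n = 3) and 0.921% ± 0.486 (SD, n = 2; exact permutation test, p = 0.9, adjusted p = 1). None of the 4 genes passed the test, and with 3 mice against 2 none could have.

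**Figure D4:**
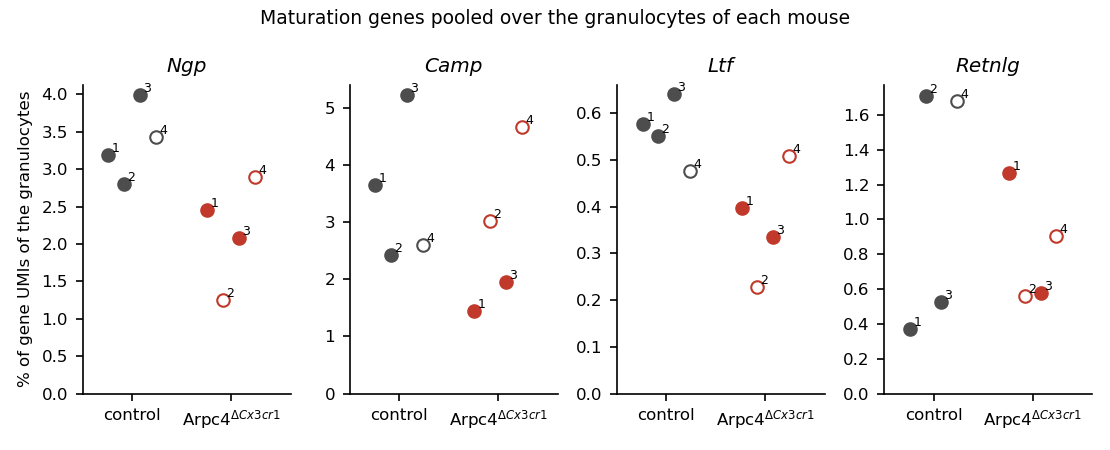
Share of Ngp, Camp, Ltf and Retnlg in the summed gene UMIs of the granulocytes of each mouse, in percent, with the number of the mouse beside each point. Filled points are the 5 mice with at least 5 granulocytes. Ngp and Ltf of the filled Arpc4ΔCx3cr1 points lie below the filled control points, and with the open points the genotypes overlap.

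Pooled over the mice of a genotype, Ngp took 3.56% of granulocyte UMIs in control (exact 95% Poisson interval 3.49 to 3.62%, counting error only) and 2.35% in Arpc4ΔCx3cr1 mice (2.32 to 2.39%). Camp took 4.22% (4.15 to 4.30%) and 1.89% (1.86 to 1.93%), and Ltf 0.601% (0.575 to 0.629%) and 0.386% (0.371 to 0.401%). Retnlg took 0.724% (0.695 to 0.754%) and 1.10% (1.08 to 1.13%). Arpc4ΔCx3cr1 mouse 1 supplied 477867 of the 655713 UMIs of its genotype, and the primary granule cell 12.6% of those of the mouse. Without mouse 1 the pooled Arpc4ΔCx3cr1 levels were 2.09% for Ngp, 3.09% for Camp, 0.357% for Ltf and 0.674% for Retnlg, so Retnlg was above the control level with mouse 1 and below it without.

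All genes were then compared between genotypes in the same 5 mice with edgeR's quasi-likelihood test on UMIs summed per mouse. Of 1122 genes that passed the filter on low counts, 0 (0%) passed at a Benjamini-Hochberg adjusted p under 0.05, while 62 genes (5.53%) had an unadjusted p under 0.05 and DESeq2 called 2 genes. Of the 6 secondary granule genes, all of which were tested, 6 had a negative log2 fold change, with a median of -0.49 against 0.01 over all genes tested. In 4 of these 6 the Arpc4ΔCx3cr1 mice lay below the control mice without overlap, as did 9.0% of all genes tested. Camp changed by -1.21 on the log2 scale (SE 0.43, edgeR adjusted p = 0.719), Ltf by -0.70 (SE 0.36, adjusted p = 0.907) and Ngp by -0.58 (SE 0.38, adjusted p = 0.970). Of the tertiary granule genes 4 of 6 tested were positive (median 0.22), of the mature receptors described here 4 of 4 (median 0.28), and Retnlg stood at 0.12 (SE 0.63, edgeR adjusted p = 0.996). The 8 microglia genes tested had a median of -0.35, all negative, and none passed. The count of 0 depended on single mice, with 4 genes called without Arpc4ΔCx3cr1 mouse 1 and 68 without Arpc4ΔCx3cr1 mouse 3, where 1 mouse of the genotype remained and was assumed to vary like the control mice. Without the 12 cells led by another tag, an alternative added after seeing the data, 113 of 2125 genes were called, again with mouse 1 as the only Arpc4ΔCx3cr1 mouse, and the log2 fold change of Ngp was -0.01 and that of Ltf -0.36.

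Prtn3 and Ifitm1 of the listed genes did not pass in edgeR but were called under some alternatives. Without a filter on low counts, edgeR also called Mpo, Ctsg and Elane of the primary granule list, and Elane again with a minimum count of 3. The primary granule cell held 96.4% of the granulocyte UMIs of Mpo, 98.4% of Ctsg and 80.3% of Elane. Prtn3 had a log2 fold change of 4.73 (SE 0.91, edgeR adjusted p = 0.193), with 84.7% of its UMIs in the primary granule cell of Arpc4ΔCx3cr1 mouse 1. DESeq2 called it (log2 fold change 4.71, DESeq2 adjusted p = 1.18e-04), and so did edgeR without a filter, with a minimum count of 3 and with mice paired by number. Ifitm1 stood at 758, 157, 703 and 0 CPM in the granulocytes of control mice 1 to 4 and at 4051, 1968, 1477 and 621 CPM in Arpc4ΔCx3cr1 mice 1 to 4, and its fold change was 2.36 on the log2 scale (SE 0.62, edgeR adjusted p = 0.475). It was called without the cells at 1% or more of microglia markers (5.01, edgeR adjusted p = 0.00375) and without a filter on low counts. The highest control mouse lay above the lowest Arpc4ΔCx3cr1 mouse. In the other cells Ifitm1 stood at 3.2 CPM in control and 38.0 CPM in Arpc4ΔCx3cr1 mice, and its part in the granulocyte values was not tested.

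The targeted gene was examined last. Arpc4 (ENSMUSG00000079426, chr6:113378115-113390448 on the plus strand, GRCm38) was at 172, 78.5, 248 and 360 CPM in the granulocytes of control mice 1 to 4 and at 213, 253, 265 and 183 CPM in those of Arpc4ΔCx3cr1 mice 1 to 4. The groups overlapped, with means of 215 ± 119 and 229 ± 37.7 CPM (SD, n = 4 each, two-sided exact permutation test, p = 0.8, adjusted p = 0.8 over 3 tests), and in edgeR the log2 fold change was 0.37 (SE 0.48, adjusted p = 0.996). In the other cells, mostly microglia, Arpc4 was at 219 to 233 CPM in control and 134 to 157 CPM in Arpc4ΔCx3cr1 mice without overlap (exact permutation test, p = 0.0286, the smallest possible, adjusted p = 0.0857). The log2 ratio of granulocytes to other cells was -0.28 ± 0.91 in control and 0.65 ± 0.25 in Arpc4ΔCx3cr1 mice (SD, n = 4 each, exact permutation test, p = 0.0857, adjusted p = 0.129), so a difference between the cell types in their change was not shown. Only 209 Arpc4 UMIs were counted in all granulocytes, 5 of them in control mouse 4. The deleted part of Arpc4 is not given in the sources used here, so a count from the 3′ end may miss a deletion elsewhere in the gene.

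**Figure D5:**
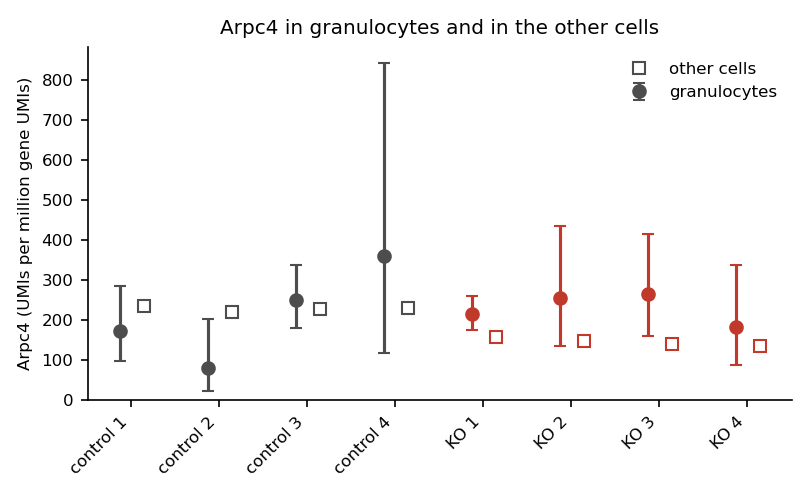
Arpc4 in CPM in the granulocytes of each mouse (filled circles, with exact 95% Poisson intervals) and in the other cells (open squares). Granulocytes ranged from 78.5 to 360 CPM in control and 183 to 265 CPM in Arpc4ΔCx3cr1 mice, and the other cells of the 4 Arpc4ΔCx3cr1 mice (134 to 157 CPM) lie below those of the control mice (219 to 233 CPM).

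None of the other subunits of the complex passed the test. Of 9 subunit genes 7 were tested, 4 with a positive and 3 with a negative log2 fold change, with no call (lowest edgeR adjusted p = 0.996). Arpc3 stood at 780 ± 169 CPM in the granulocytes of control and 737 ± 145 CPM in those of Arpc4ΔCx3cr1 mice, Arpc1b at 670 ± 144 and 686 ± 175 CPM, Arpc2 at 717 ± 59.4 and 781 ± 165 CPM and Actr3 at 665 ± 102 and 493 ± 108 CPM (SD, n = 4 each). Together the 9 subunits took 0.404% of the UMIs of granulocytes, 0.469% of those of the monocyte-like cells and 0.239% of those of all other cells. Cx3cr1, whose promoter drives the Cre, was at 390 ± 115 and 628 ± 398 CPM in granulocytes (SD, n = 4 each), against 3412 ± 88.5 and 2018 ± 326 CPM in the other cells. The microglia list, which contains Cx3cr1, took 0.322 to 0.770% of granulocyte UMIs in control and 0.132 to 0.918% in Arpc4ΔCx3cr1 mice. How much of the Cx3cr1 signal in granulocytes came with RNA of microglia was not tested.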

How the data were processed

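CD45+ cells sorted from the brains of 8 mice were measured in 1 pooled Chromium 3′ v3.1 library. Mapping and counting against mm10 were done by the authors in Cell Ranger, whose version is 7.1.0 in the methods and file headers and 6.1.2 in the submitters' processing notes, and deposited raw UMI counts for 32285 genes and 12 tags (8 in use), as 1 matrix per mouse and 1 unfiltered matrix of the pool. Groups and mouse numbers were taken from the tag label. No filter on mitochondrial share was applied, no correction for free RNA was made, and no doublet caller was run here. The matrices of the mice hold between 5251527 and 12878691 gene UMIs.

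Cells with at least 500 gene UMIs and 1% of S100a8 and S100a9 were taken as granulocytes. The members, gene lists and tests were chosen with earlier results of these data known. Shares and levels were compared over mice by two-sided exact permutation tests. UMIs summed over the granulocytes of each mouse with at least 5 of them were tested by the quasi-likelihood method of edgeR 4.0.16, after filterByExpr and TMM scaling, with calls at a p of under 0.05 after Benjamini-Hochberg adjustment over all genes, and with DESeq2 1.42.0 as an alternative, in R 4.3.3. Tested on simulated data for this comparison with 1122 genes, of which 200 were changed, the test recovered 0.5% of 2-fold, 75% of 4-fold and 81% of 8-fold changes. It made 1, 6 and 8 false calls. The simulated sums per mouse were drawn from a common mean profile, so genes with most UMIs in a single cell, such as Prtn3, are not represented. A gene of the receptor list and one of the B cell list are not reported here and were left out of the lists. Genes were named from the fixed lists, as the 15 of at least 500 CPM with the largest ratio to the other cells, or as the 5 with the largest ratio on each side of the early range, and other genes are marked as chosen after their values were seen. A fold against at most 3 UMIs was set to that floor. Intervals are exact 95% binomial or Poisson intervals and cover counting error only. Mice were processed together, so p-values measure the spread between these mice. Alternatives changed the thresholds, the filter, the scaling, the cells and the mice used.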

Additional observations from a re-analysis of the deposited data

Results flagged for a closer look

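Of 16 groups of 4 mice examined for a value standing apart from the rest by Dixon's criterion, 3 held one, and chance gives about 1 in 20. The share of granulocytes in Arpc4ΔCx3cr1 mouse 1 (1.25%) stood apart from the other 3 mice of its genotype, with a gap of 0.909 of the whole range. The early-range share of Arpc4ΔCx3cr1 mouse 4 was 75%, 3 of 4 cells, while the other 3 mice were all at 66.7%, so the gap was the whole range. The median granulocyte of control mouse 1 held 10251 gene UMIs, against 6936 to 7359 in the other control mice, a gap of 0.872 of the range.

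In the unfiltered pool, 71 barcodes that were given to no mouse met the rule for granulocytes, beside the 81 that were. They were 1.01% of the 7036 unassigned barcodes with at least 500 gene UMIs. Their median was 15808 gene UMIs, 46 of them were in the early range, 34 held at least 1% of microglia markers, and in 30 the second tag reached at least 0.5 of the count of the first. They entered no comparison of genotypes.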

How the results depend on the processing

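Of 199 recomputed values, 169 kept their direction and side of the threshold or, for the count of called genes, stayed at 0. Exact permutation tests over 3 mice against 2 or fewer could not cross the threshold, since their smallest possible p is 0.1 or more. The difference in the share of granulocytes ranged from -0.230 to 0.149 percentage points as each mouse was left out. That in the early-range share was -7.33 with a limit of 2%, -19.8 with 5%, -8.04 without cells at 1% or more of microglia markers, -5.50 with all 8 mice and -3.26 to 3.88 as each mouse was left out. That in Retnlg was -0.243 with all 8 mice and -0.291 to 0.473 as each was left out, and its edgeR log2 fold change -0.49 and -0.80 to 1.03. The count of called genes (0) became 2 with DESeq2, 23 of 12105 without a filter, 7 of 3689 with a minimum count of 3, 1 with S100a8 and S100a9 at 5%, 2 of 605 without the cells rich in microglia markers, 113 of 2125 without the cells led by another tag and 0 to 68 as each mouse was left out. For Arpc4 in granulocytes the difference was -31.8 to 62.1 CPM as each mouse was left out, and -0.522 without control mouse 1. Its difference in other cells was -77.9 CPM (exact permutation test, p = 0.1, the smallest possible) in mice with at least 5 granulocytes, and the log2 ratio differed by 1.24 without control mouse 4 (exact permutation test, p = 0.0286). The mice share only a number: with the replicate block the early-range difference was -3.26 and 7 genes were called. The causes were not tested. The use of all 8 mice, the removal of cells led by another tag and every Arpc4 alternative per mouse were chosen after seeing the data. Restricting to mice with at least 10 granulocytes was not run, since it leaves 1 mouse per genotype. With 81 cells, changes of 2-fold were rarely recoverable.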

Other observations

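Genes called under some alternatives were examined after their values were seen. Nav2 stood at 276, 510, 164 and 0 CPM in the granulocytes of control mice 1 to 4 and at 12.6, 136, 0 and 36.5 CPM in Arpc4ΔCx3cr1 mice 1 to 4. It had 92 UMIs in 15 granulocytes, 56.5% of them in 3 cells, and the value of control mouse 2 came from 1 cell. The other cells held 1581 CPM of Nav2 in control and 304 CPM in Arpc4ΔCx3cr1 mice, and their part in the granulocyte values was not tested. Cd74, which encodes the invariant chain of MHC class II, had 83.6% of its granulocyte UMIs in 3 cells, and H2-Aa had 90.9%. Ly6g, the surface antigen by which mouse neutrophils are commonly sorted, stood at 781, 589, 709 and 865 CPM in control mice 1 to 4 and at 312, 253, 111 and 511 CPM in Arpc4ΔCx3cr1 mice 1 to 4. The groups did not overlap, as was so for 9.0% of all genes tested in the lower direction over the 5 mice of the fit, and in edgeR the log2 fold change was -1.57 (SE 0.50, adjusted p = 0.564).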
